A study of Mus musculus with 6 samples.

Results

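The E proteins and their inhibitors, the Id proteins, were described in mouse group 2 innate lymphoid cells (ILC2). The genes were taken by symbol: the 4 Id genes Id1, Id2, Id3 and Id4, and the 3 E protein genes Tcf3, Tcf4 and Tcf12. These are 7 of the 37991 genes in the count files. All 7 were found, Id4 had 0 counts in every library, and the other 6 passed the filter on low counts.

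All libraries came from mice homozygous for an Id1 transgene driven by the proximal promoter of lck; the line was made on FVB/N and crossed back to C57BL/J over 10 or more generations. The groups were mesenteric lymph node (MLN) ILC2 kept for 1 week in culture with 3 cytokines (IL-33, IL-25 and IL-7, each at 10 ng/ml), ILC2 taken directly from the thymus, and ILC2 taken directly from the MLN, with 2 libraries per group. Cells had been sorted as lineage-negative, Thy1+ and ST2+, and about 300000 cells went into a sample. No library without the transgene was analysed here, so no value below measures the effect of the transgene. The age of the mice, and whether the 2 libraries of a group came from separate animals or cultures, cannot be read from the labels. The p-values therefore measure only the spread between these libraries, which may be technical.

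E proteins are basic helix-loop-helix (HLH) transcription factors that bind DNA as dimers at the E-box, the motif CANNTG. Tcf3 encodes E12 and E47, Tcf12 encodes HEB and Tcf4 encodes E2-2. Id proteins have the HLH domain but lack the basic region that contacts DNA, and an E protein paired with an Id protein does not bind the E-box. In the thymus E proteins drive the T cell program, whereas innate lymphoid cells depend on Id2. The lck proximal promoter is active in immature T cells.

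Values are normalised read counts (CPM, counts scaled to TMM-adjusted library totals). A gene is called at an adjusted p under 0.05 in edgeR's quasi-likelihood test, and "rose", "fell", "higher" and "lower" in a test are used of called genes. Library totals ran from 35280692 to 40578264 counts. On the TMM-adjusted totals, 3 counts are 0.0739 to 0.0905 CPM. Both sort markers were present in every library, Il1rl1, which encodes ST2, at 1444 to 2342 CPM and Thy1 at 107 to 736 CPM, and Gata3, the ILC2 lineage factor, stood at 599 to 1064 CPM. The comparisons share libraries, so their values are given side by side and are not independent of each other.

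The 250 bases before the start of transcription are shown for Id2 and Id3, the Id genes called in every comparison, and for Lck, whose proximal promoter carries the transgene. They are from RefSeq on GRCm38.p6, read 5′ to 3′ on the strand of the gene, with each CANNTG in capitals. Of the 7 genes, 5 matched the table, and Id1 and Tcf4 did not. Lck has 2 starts there, and the one nearer the coding sequence is shown.
Id2, chr12:25096093-25096342, minus strand: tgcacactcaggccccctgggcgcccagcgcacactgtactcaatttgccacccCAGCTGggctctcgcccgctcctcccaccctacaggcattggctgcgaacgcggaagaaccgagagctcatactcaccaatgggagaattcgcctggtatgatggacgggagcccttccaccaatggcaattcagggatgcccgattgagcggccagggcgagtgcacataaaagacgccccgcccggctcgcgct
Id3, chr4:136143572-136143821, plus strand: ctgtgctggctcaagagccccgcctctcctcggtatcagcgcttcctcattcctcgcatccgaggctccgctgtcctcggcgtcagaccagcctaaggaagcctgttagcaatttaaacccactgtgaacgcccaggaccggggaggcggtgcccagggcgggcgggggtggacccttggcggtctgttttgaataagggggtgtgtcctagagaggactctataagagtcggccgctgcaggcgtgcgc
Lck, chr4:129558373-129558622, minus strand: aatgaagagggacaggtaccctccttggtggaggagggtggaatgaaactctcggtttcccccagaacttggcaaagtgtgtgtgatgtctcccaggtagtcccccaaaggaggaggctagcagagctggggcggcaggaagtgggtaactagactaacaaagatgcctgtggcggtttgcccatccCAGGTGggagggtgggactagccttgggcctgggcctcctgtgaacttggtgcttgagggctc
The Id2 window held 1 CANNTG, spelled CAGCTG. No CANNTG stood in the Id3 window. The Lck window held 1, spelled CAGGTG. Over 32851 windows of the same length in the table, 66.2% held CANNTG on either strand, 13.0% held CAGCTG, and 17.2% held CAGGTG or its reverse complement CACCTG. The last 2 spellings are cases of CANNTG. A match describes the letters and is not evidence of binding, and no match says nothing of E proteins elsewhere at the gene.

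Id1, the inhibitor carried by the transgene, was among the most abundant transcripts of fresh cells in both organs and was nearly absent after culture. Id1 (ENSMUSG00000042745) had 1.48 and 1.19 CPM in cultured MLN, 422 and 426 CPM in thymus, and 434 and 469 CPM in fresh MLN. The cultured libraries stood far below all others, and the thymus libraries lay just below the fresh MLN libraries without overlap. The counts do not separate reads of the transgene from reads of the endogenous gene. In bulk samples, fewer cells with a transcript and less of it per cell cannot be told apart.

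Id1 fell 340-fold in cultured against fresh MLN, a log2 fold change of -8.41 ± 0.11 (SE, adjusted p 7.68e-15, edgeR quasi-likelihood test). It also fell 319-fold in cultured MLN against thymus (log2 fold change -8.32 ± 0.11, adjusted p 1.02e-14). Only 92 counts of Id1 were left in the 2 cultured libraries together, against 33142 in thymus and 34545 in fresh MLN. Between the organs the log2 fold change of -0.09 ± 0.07 did not pass (adjusted p 0.319).

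Lck (ENSMUSG00000000409), the T cell kinase gene, was followed because part of its promoter carries the transgene. It had 12.7 and 14.9 CPM in cultured MLN, 289 and 269 CPM in thymus, and 214 and 181 CPM in fresh MLN. All 3 groups were apart, in an order unlike that of Id1. Lck fell 14.3-fold in cultured against fresh MLN (log2 fold change -3.83 ± 0.10, adjusted p 1.66e-12) and 20.2-fold against thymus (log2 fold change -4.33 ± 0.11, adjusted p 8.44e-13). It was higher in thymus than in fresh MLN (log2 fold change 0.50 ± 0.09, adjusted p 0.00048), where Id1 was not called; the difference between the 2 genes was not tested.

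Id2, the Id protein that innate lymphoid cells require, was highest in cultured MLN, where Id1 was lowest. Id2 (ENSMUSG00000020644) had 1278 and 1236 CPM in cultured MLN, 453 and 494 CPM in thymus, and 863 and 884 CPM in fresh MLN. No groups overlapped, with the order cultured MLN, fresh MLN, thymus. Id2 rose 2.66-fold in cultured MLN against thymus (log2 fold change 1.41 ± 0.07, adjusted p 1.27e-09) and by 0.52 ± 0.07 log2 units against fresh MLN (adjusted p 1.74e-05). It fell in thymus against fresh MLN, at a log2 fold change of -0.88 ± 0.07 (adjusted p 5.19e-07). The annotated copy of Id2 most like it, the processed pseudogene Gm6175 with 91.8% identity over 380 bases, had at most 4 counts in any library.

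Id3, which acts beside Id2 in T cells, was a trace transcript. Id3 (ENSMUSG00000007872) had 97 and 96 counts in cultured MLN, 15 and 25 counts in thymus, and 1 and 2 counts in fresh MLN, equal to 2.93 and 2.65, 0.370 and 0.665, and 0.0257 and 0.0531 CPM. The groups did not overlap, and even the highest library stood far below Id2. With 3 counts in fresh MLN, its change there is given as a ratio of scaled counts with an exact binomial interval. The ratio of cultured to fresh MLN was 71.0 (95% interval 23.9 to 347) and that of thymus to fresh MLN was 13.1 (4.16 to 66.0). Both were called (adjusted p 1.5e-07 for cultured MLN and 0.000598 for thymus). Against thymus Id3 rose in cultured MLN by 2.43 ± 0.33 log2 units (adjusted p 2.06e-05). Such intervals cover counting error only.

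Id4 (ENSMUSG00000021379) had 0 counts in all 6 libraries. A count of 0 allows up to 0.0739 to 0.0905 CPM, the level of 3 counts in a library.

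**Figure D1:**
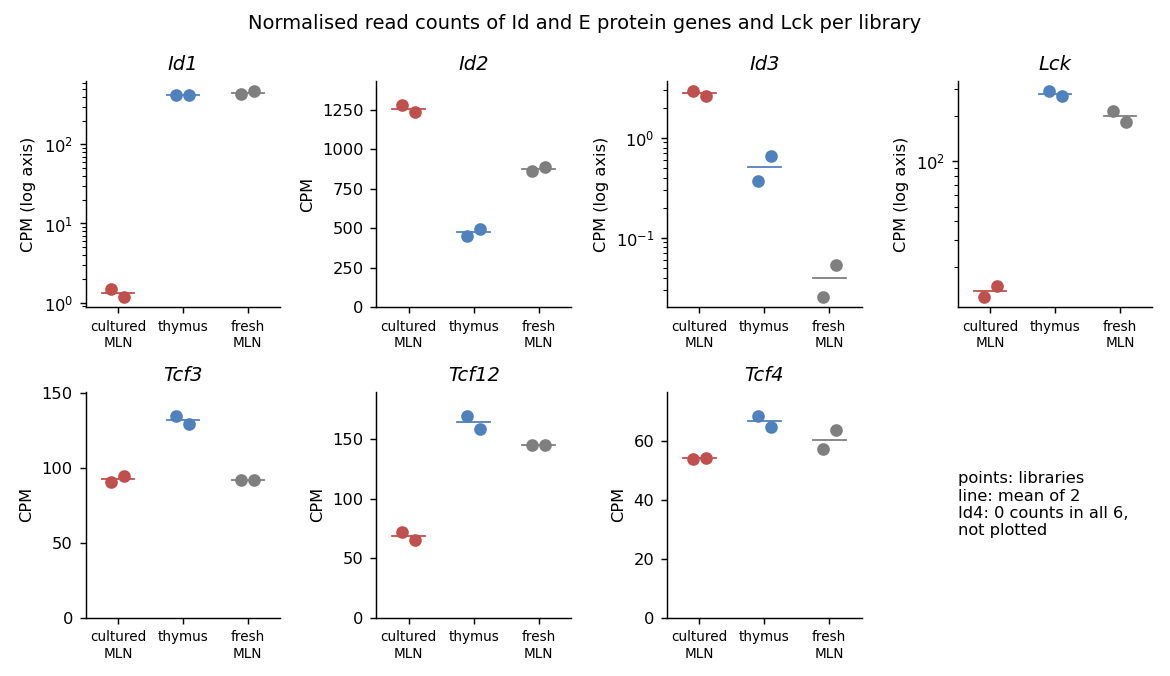
Normalised read counts (CPM) of the Id and E protein genes and Lck, with each point a library and each line the mean of 2. The axes of Id1, Id3 and Lck are logarithmic and the others start at 0. Id1 sits at 1.48 and 1.19 CPM in cultured MLN and at 422 CPM or more in the other libraries, whereas Id2 is highest in cultured MLN and Tcf12 lowest there.

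Tcf3, the gene of E12 and E47, was the E protein gene with the largest log2 fold change in thymus against fresh MLN. Tcf3 (ENSMUSG00000020167) had 90.9 and 94.6 CPM in cultured MLN, 135 and 129.6 CPM in thymus, and 92.3 and 92.0 CPM in fresh MLN. The thymus libraries were the highest, and those of cultured and fresh MLN overlapped. Tcf3 rose in thymus against fresh MLN by 0.52 ± 0.06 log2 units (adjusted p 1.91e-05) and fell in cultured MLN against thymus, at a log2 fold change of -0.51 ± 0.06 (adjusted p 7.66e-06). The log2 fold change in cultured against fresh MLN was 0.01 ± 0.06 (adjusted p 0.892). That value turned to -0.21 (adjusted p 0.00751) when libraries were scaled by their totals alone, which moved the median of all genes by -0.23 (log2).

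Tcf12, the gene of HEB, which partners E47 in thymocytes, was the E protein gene that changed most with culture. Tcf12 (ENSMUSG00000032228) had 71.9 and 65.1 CPM in cultured MLN, 169.5 and 159 CPM in thymus, and 145 CPM in both fresh MLN libraries. The cultured libraries were the lowest, and no groups overlapped. Tcf12 fell in cultured against fresh MLN, at a log2 fold change of -1.09 ± 0.07 (adjusted p 9.59e-09) and against thymus, at a log2 fold change of -1.26 ± 0.07 (adjusted p 2.77e-09). The log2 fold change for thymus against fresh MLN, 0.18 ± 0.07, was just past the threshold (adjusted p 0.0498) and lost the call in 10 of 14 alternative settings, among them the removal of any single library other than thymus replicate 2 (adjusted p at most 0.194).

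Tcf4, the gene of E2-2, which plasmacytoid dendritic cells require, was called in 1 of the 3 comparisons. Tcf4 (ENSMUSG00000053477) had 54.0 and 54.3 CPM in cultured MLN, 68.5 and 64.9 CPM in thymus, and 57.4 and 63.6 CPM in fresh MLN. The groups did not overlap, but the highest fresh MLN library lay close to the lower thymus library. Tcf4 fell in cultured MLN against thymus, at a log2 fold change of -0.30 ± 0.07 (adjusted p 0.00228). Its log2 fold changes of -0.16 ± 0.07 in cultured against fresh MLN (adjusted p 0.0628) and 0.14 ± 0.07 in thymus against fresh MLN (adjusted p 0.126) did not pass. The value for cultured against fresh MLN was called under 5 alternatives, among them scaling by upper quartiles (-0.18, adjusted p 0.0373).

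In cultured against fresh MLN, 4 of the 6 tested Id and E protein genes were called, Id2 and Id3 higher and Id1 and Tcf12 lower, where 77.6% of the 16231 genes tested were called. In cultured MLN against thymus all 6 were called, Id2 and Id3 higher and the other 4 lower, beside 72.7% of genes tested. In thymus against fresh MLN 4 were called, Id3, Tcf3 and Tcf12 higher and Id2 lower, beside 47.3%. Libraries of the compared groups were fully apart at 5 of the 6 genes in cultured against fresh MLN, at 6 in cultured MLN against thymus and at 6 in thymus against fresh MLN, where the same held for 89.2%, 86% and 72.8% of all genes tested. With 6 genes, nothing particular to them is read from these counts. The median of all genes tested was -0.01 in cultured against fresh MLN and -0.06 in cultured MLN against thymus.

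**Figure D2:**
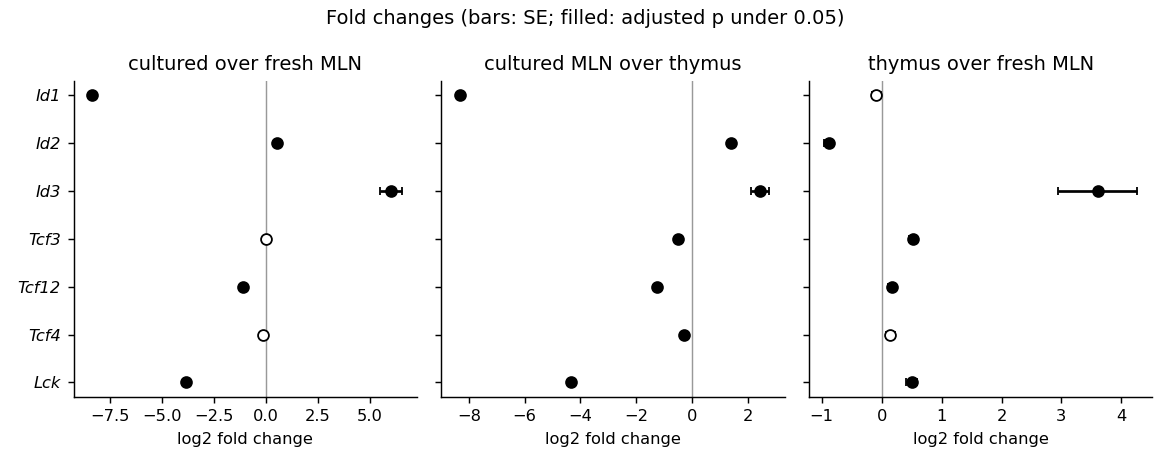
Log2 fold changes of the tested Id and E protein genes and Lck in the 3 comparisons, with bars for the SE and filled points for an adjusted p under 0.05; each panel has its own axis. Id1 lies beyond -8 in both panels with cultured MLN and is open in thymus over fresh MLN, and the points of Id3 against fresh MLN rest on 3 counts there.

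Because the transcripts differ in length, levels were compared between genes per kilobase of the median coding transcript, among 12984 tested genes with one. On this scale of level, Id2 stood at 990 CPM per kilobase in cultured MLN, 373 in thymus and 688 in fresh MLN. Id1 stood at 1.27 in cultured MLN, 405 in thymus and 431 in fresh MLN. Id2 thus exceeded at least 99.4% of these genes in every group, whereas Id1 exceeded 20.9% in cultured MLN, 99.4% in thymus and 99.5% in fresh MLN.

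The E protein genes were moderate by the same measure. Tcf3 was at 32.7 CPM per kilobase in cultured MLN, 46.6 in thymus and 32.4 in fresh MLN. Tcf12 was at 15.9, 38.1 and 33.7 in the same order of groups, and Tcf4 at 23.1, 28.4 and 25.8. Per kilobase of all annotated exons Tcf4, whose exons are the longest in sum, stood at 2.21 in fresh MLN, beside 22.8 for Tcf3 and 9.36 for Tcf12, so the order within the E proteins depends on the length used. On both lengths Id1 and Id2 were above every E protein gene in thymus and in fresh MLN, and in cultured MLN Id2 was above and Id1 below all 3.

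The makeup of the Id family differed between the groups. Id2 gave 99.7% of all Id counts in cultured MLN, 52.7% in thymus and 65.9% in fresh MLN. Id1 gave 0.105%, 47.3% ± 1.34 and 34.1% ± 0.840 in the same order (mean ± SD, n = 2), and Id3 at most 0.221%. Per kilobase of the median transcript Id1 gave 52.1% and Id2 47.9% in thymus, and 38.5% and 61.5% in fresh MLN. Per kilobase of all annotated exons Id1 gave 65.3% in thymus and 52.0% in fresh MLN. Which of the 2 was larger in these groups thus depends on the length used. The sum of the Id genes was 1261 ± 29.6 CPM in cultured MLN, 898 ± 32.6 CPM in thymus and 1325 ± 39.0 CPM in fresh MLN. Single libraries ran from 1240 to 1282 CPM in cultured MLN and from 1298 to 1353 CPM in fresh MLN. The sums were thus close together on counts not scaled by length, while Id1 was nearly absent from the cultured libraries. Per kilobase of all annotated exons the levels were less alike. Id2 stood at 516 CPM per kilobase in cultured MLN, and Id1 and Id2 at 389 and 358 in fresh MLN.

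Within the E proteins, Tcf12 gave 31.8% ± 1.96 of the counts in cultured MLN, 45.2% ± 0.348 in thymus and 48.8% ± 0.681 in fresh MLN. Tcf3 gave 43.1% ± 1.62, 36.4% ± 0.348 and 30.9% ± 0.511, and Tcf4 the rest. Per kilobase of the median transcript Tcf3 gave 41.2% and Tcf12 33.7% in thymus, and 35.3% and 36.7% in fresh MLN. Per kilobase of all annotated exons Tcf3 was the largest part in every group, with 71.6% in thymus and 66.4% in fresh MLN. The sum of the E protein genes was 215 ± 1.90 CPM in cultured MLN, 363 ± 13.9 CPM in thymus and 298 ± 4.27 CPM in fresh MLN, with no overlap.

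**Figure D3:**
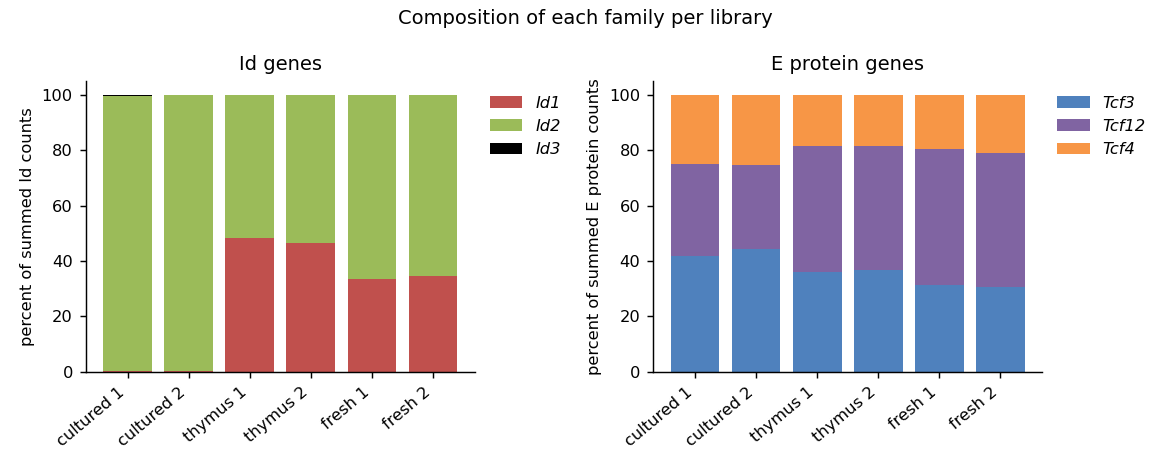
Share of each gene in the summed counts of the Id genes (left) and of the E protein genes (right), in percent, with 1 bar per library. Id1 is a visible part of the Id counts in thymus (47.3%) and fresh MLN (34.1%) but not in cultured MLN (0.105%), and Tcf12 is the largest part of the E protein counts outside culture. The counts are not scaled by transcript length, and the order within a family differs when they are.

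The ratio of summed Id to summed E protein counts, a balance at the level of transcripts, was 5.92 and 5.79 in cultured MLN, 2.35 and 2.61 in thymus, and 4.40 and 4.50 in fresh MLN. The libraries of the 3 groups did not overlap, and the thymus was lowest. In thymus against fresh MLN the difference of the mean log2 ratios was -0.85, and in cultured MLN against thymus it was 1.24. With 2 libraries per group an exact permutation test cannot give a p below 0.333, so no test was made of the ratio.

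The order of cultured and fresh MLN depends on the length scale: the log2 difference was 0.40 on counts and 0.19 per kilobase of median transcript, but -0.30 per kilobase of all exons, where the ratios were 18.1 and 17.2 in cultured MLN against 21.2 and 22.2 in fresh MLN. The thymus stayed lowest on all of these scales. Leaving out Id1, and with it any transgene read counted as Id1, gave ratios of 5.91 and 5.79 in cultured MLN, 1.21 and 1.40 in thymus, and 2.93 and 2.94 in fresh MLN. Without Id1 the log2 difference was 1.00 in cultured against fresh MLN, 2.17 in cultured MLN against thymus and -1.17 in thymus against fresh MLN, each larger in size than with it.

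**Figure D4:**
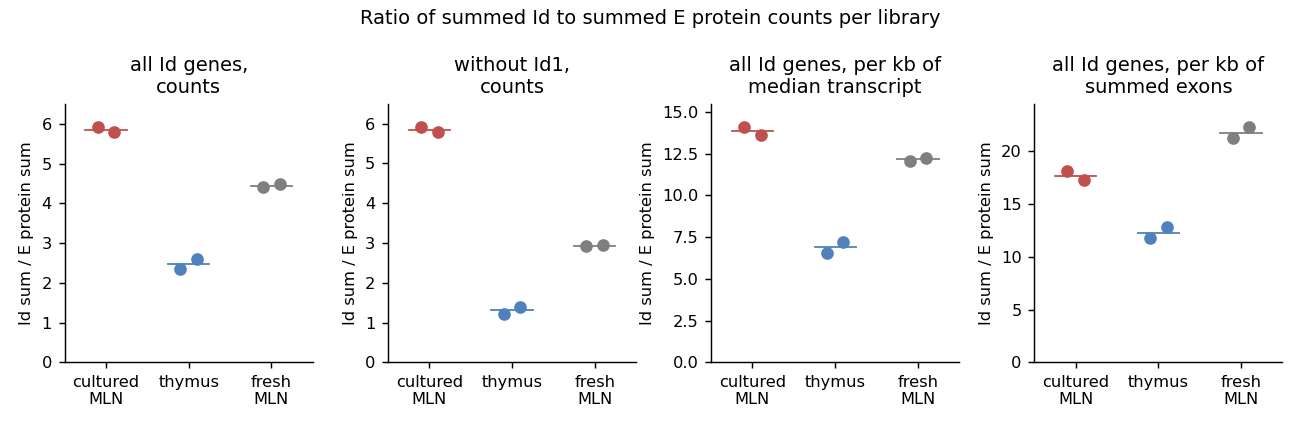
Ratio of summed Id to summed E protein counts in each library (points) with the mean of 2 (lines), on counts, without Id1, and per kilobase on 2 length scales; axes start at 0. The thymus libraries are lowest in all 4 panels, and cultured MLN is above fresh MLN except per kilobase of summed exons, where it is 17.7 against 21.7 on average.

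Other partners of E protein complexes were followed next. Of 18 HLH, LIM-only (LMO) and LDB genes, 8 were tested. In cultured against fresh MLN 2 rose and 4 fell (median log2 fold change -0.49), in cultured MLN against thymus 2 rose and 6 fell (median -2.48), and in thymus against fresh MLN 5 rose and 1 fell (median 0.69). Over all genes tested, the shares higher and lower were 39.4% and 38.1% in cultured against fresh MLN, 34.8% and 37.8% in cultured MLN against thymus, and 25.3% and 22% in thymus against fresh MLN.

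Lmo4, a LIM-only bridging factor, had 189 and 176 CPM in cultured MLN, 1486 and 1558 CPM in thymus, and 930 and 1018 CPM in fresh MLN. It fell, with a log2 fold change of -2.42 ± 0.08 in cultured against fresh MLN (adjusted p 9.49e-12) and was 0.64 ± 0.08 log2 units higher in thymus than in fresh MLN (adjusted p 1.51e-05). Hey1, a Notch-induced repressor, was a transcript of the thymus, at 28.8 and 23.4 CPM there, against 1.81 and 0.965 CPM in cultured MLN and 1.13 and 1.62 CPM in fresh MLN. Its rise in thymus against fresh MLN was 4.25 ± 0.22 log2 units (adjusted p 5.74e-09).

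Hes1, the other Notch-induced repressor, fell in cultured MLN to 14.8 and 18.7 CPM, against 53.4 and 72.6 CPM in thymus and 31.5 and 43.7 CPM in fresh MLN. It was called in every comparison (log2 fold change -1.16 ± 0.17 in cultured against fresh MLN, adjusted p 3.34e-05; 0.74 ± 0.16 in thymus against fresh MLN, adjusted p 0.00188). Bhlhe40, a repressor induced in activated lymphocytes, had the group order of Id2 and was at 216 and 209.5 CPM in cultured MLN, 70.7 and 70.9 CPM in thymus, and 110.1 and 110.0 CPM in fresh MLN, a rise of 0.95 ± 0.06 log2 units in cultured against fresh MLN (adjusted p 8.91e-09).

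Of 10 genes for co-activators and co-repressors bound by E proteins, 9 were tested. The cofactors of cultured against fresh MLN showed 0 rises and 5 falls (median log2 fold change -0.33), and in cultured MLN against thymus 0 rose and 7 fell (median -0.35). At an unadjusted p under 0.05 edgeR gave 0 and 1 rises, the 1 being Ep300 against thymus. DESeq2 called 1 rise in each, Runx1t1 against fresh MLN and Ep300 against thymus. In thymus against fresh MLN 3 rose and 2 fell (median 0.06). Over all genes tested, 39.4% were higher and 38.1% lower in cultured against fresh MLN. The shares were 34.8% and 37.8% in cultured MLN against thymus, and 25.3% and 22% in thymus against fresh MLN. Crebbp, the acetyltransferase CBP, was at 77.2 and 78.0 CPM in cultured MLN, 172 and 153 CPM in thymus, and 204 and 207 CPM in fresh MLN, and fell with a log2 fold change of -1.41 ± 0.07 in cultured against fresh MLN (adjusted p 7.72e-10). Kat2a, the acetyltransferase GCN5, fell alike (log2 fold change -1.19 ± 0.07, adjusted p 6.27e-09), whereas Ep300, the gene of p300, had a log2 fold change of 0.12 ± 0.07 and did not pass (adjusted p 0.155).

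Cbfa2t3, the co-repressor ETO2, was at 22.1 and 15.4 CPM in thymus, against 1.57 and 1.83 CPM in fresh MLN (log2 fold change 3.46 ± 0.20, adjusted p 1.84e-08). Only 5 counts of it were found in the 2 cultured libraries. Smarca4, the chromatin remodeller BRG1, was 0.35 ± 0.07 log2 units higher in thymus than in fresh MLN (adjusted p 0.00115).

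All 10 genes that bear on the stability or capture of Id and E proteins were tested. Against fresh MLN, 6 rose and 2 fell in cultured MLN (median log2 fold change 0.25), in cultured MLN against thymus 3 rose and 3 fell (median -0.14), and in thymus against fresh MLN 6 rose and 2 fell (median 0.29). In the same order of comparisons, 39.4%, 34.8% and 25.3% of all genes tested were higher, and 38.1%, 37.8% and 22% lower. Asb2, a ubiquitin ligase subunit that promotes breakdown of E2A proteins, had 877 and 874 CPM in cultured MLN, 27.0 and 26.2 CPM in thymus, and 261 and 208 CPM in fresh MLN. These groups were far apart, and Asb2 shared the order of Id2, with a rise of 5.04 ± 0.11 log2 units in cultured MLN against thymus (adjusted p 3.22e-13) and a log2 fold change of -3.14 ± 0.10 in thymus against fresh MLN (adjusted p 6.76e-11).

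Cdc20, a mitotic activator of the anaphase-promoting complex, had 58.8 and 67.8 CPM in cultured MLN, 43.7 and 48.6 CPM in thymus, and 4.16 and 3.69 CPM in fresh MLN. It rose by 4.01 ± 0.11 log2 units in cultured against fresh MLN (adjusted p 2.25e-12). Usp1, which removes ubiquitin from Id proteins, rose by 0.67 ± 0.07 log2 units in cultured MLN (adjusted p 6.75e-07) and 0.70 ± 0.07 log2 units in thymus (adjusted p 1.92e-06), each against fresh MLN. Skp2, a ubiquitin ligase subunit, was highest in thymus at 20.8 and 18.6 CPM, and Rbl1, the pocket protein p107, fell in cultured against fresh MLN (log2 fold change -0.89 ± 0.07, adjusted p 3.55e-08). Skp2 was at 13.2 and 11.2 CPM in cultured MLN and 7.71 and 7.33 CPM in fresh MLN.

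Of 20 genes listed as targets of E proteins in T or B lineage cells, 16 were tested. Whether E proteins raise or lower each of these genes in ILC2 was not tested. In thymus against fresh MLN 11 rose and 1 fell, with a median log2 fold change of 0.74 when Ebf1, which has at most 2 counts in either group, is left out. Over all genes tested, 25.3% were higher and 22% lower in that comparison. In cultured against fresh MLN 6 rose and 5 fell (median log2 fold change -0.51, leaving out Rag1 and Rag2), and in cultured MLN against thymus 5 rose and 9 fell (median -0.91). The shares of all genes higher and lower were 39.4% and 38.1% in the first of these, and 34.8% and 37.8% in the second. The list holds genes of low level, and Rag1, Rag2 and Dntt had at most 43 counts in any library.

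Of these targets, Lef1, a T cell HMG-box factor, had 61.0 and 62.1 CPM in thymus, against 26.1 and 26.7 CPM in fresh MLN (log2 fold change 1.22 ± 0.07, adjusted p 2.89e-08). Notch1 had 269 and 264 CPM in cultured MLN, 149 and 138 CPM in thymus, and 139 and 156 CPM in fresh MLN. Its thymus and fresh MLN libraries overlapped. Cd4, the T cell coreceptor, had 5.13 and 6.49 CPM in thymus, against 1.00 and 0.929 CPM in fresh MLN (log2 fold change 2.58 ± 0.23, adjusted p 1.07e-06). Cdk6, a cell cycle kinase, was at 122 and 128 CPM in cultured MLN, 93.6 and 67.0 CPM in thymus, and 43.5 and 32.7 CPM in fresh MLN. It rose against fresh MLN in both (log2 fold change 1.71 ± 0.14 in cultured MLN, adjusted p 1.37e-07; 1.08 ± 0.14 in thymus, adjusted p 4.84e-05).

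Among targets of at least 5 CPM, Cdkn1a and Socs3 rose most in cultured against fresh MLN. Cdkn1a, the cell cycle inhibitor p21, had 272 and 271 CPM in cultured MLN, 4.12 and 3.46 CPM in thymus, and 1.88 and 2.44 CPM in fresh MLN (log2 fold change 6.97 ± 0.11 in cultured against fresh MLN, adjusted p 2.17e-14). Socs3, a feedback inhibitor of cytokine signalling, had 714 and 705 CPM in cultured MLN, 16.4 and 20.6 CPM in thymus, and 15.7 and 15.3 CPM in fresh MLN (log2 fold change 5.52 ± 0.10, adjusted p 7.17e-14).

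Genes that act upstream of Id genes in other cells were mixed: 15 of 18 were tested. Against fresh MLN, 7 rose and 7 fell in cultured MLN (median log2 fold change -0.11), in cultured MLN against thymus 6 rose and 8 fell (median -0.66), and in thymus against fresh MLN 8 rose and 4 fell (median 0.25). In the same order of comparisons, 39.4%, 34.8% and 25.3% of all genes tested were higher, and 38.1%, 37.8% and 22% lower. The 4 tested receptors of the BMP branch, Acvrl1, Acvr1, Bmpr1a and Bmpr2, all rose in cultured against fresh MLN, at log2 fold changes of 1.47 to 7.65. The 4 tested SMAD genes, Smad1, Smad4, Smad5 and Smad7, all fell there, at log2 fold changes of -0.81 to -1.58. Both tested TGF-beta receptor genes also fell there, Tgfbr1 at a log2 fold change of -0.72 ± 0.07 (adjusted p 6.09e-07) and Tgfbr2 at -0.57 ± 0.07 (adjusted p 5.62e-06), so receptors of the list moved both ways. These groupings were made after the values were seen.

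Acvrl1, the receptor ALK1, had 41.9 and 54.0 CPM in cultured MLN, 1.68 and 1.70 CPM in thymus, and 0.206 and 0.266 CPM in fresh MLN (log2 fold change 7.65 ± 0.21 in cultured against fresh MLN, adjusted p 1.71e-12). Bmpr1a had 17.8 and 18.6 CPM in cultured MLN, against 1.55 and 0.931 CPM in thymus (log2 fold change 3.86 ± 0.22, adjusted p 2.81e-09). Both receptors were far higher in cultured MLN, where Id1 was lowest. Acvr1, the receptor ALK2, rose by 2.88 ± 0.21 log2 units in cultured against fresh MLN (adjusted p 3.26e-08).

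Nfil3, a factor that acts upstream of Id2 in innate lymphoid precursors, had 188 and 187 CPM in cultured MLN, 13.5 and 13.0 CPM in thymus, and 10.1 and 10.0 CPM in fresh MLN (log2 fold change 4.22 ± 0.08 in cultured against fresh MLN, adjusted p 5.21e-14). The immediate early factors Egr1 and Egr2, which induce Id3 in thymocytes, were higher in both cultured MLN and thymus than in fresh MLN. Egr1 had 55.2 and 56.0 CPM in cultured MLN, 24.8 and 24.6 CPM in thymus, and 10.4 and 8.39 CPM in fresh MLN (log2 fold change against fresh MLN 2.56 ± 0.10 in cultured MLN, adjusted p 5.19e-11, and 1.39 ± 0.10 in thymus, adjusted p 1.63e-07). Egr2 had 6.82 and 6.45 CPM in cultured MLN, 5.62 and 4.97 CPM in thymus, and 1.57 and 0.611 CPM in fresh MLN (log2 fold change against fresh MLN 2.60 ± 0.29 in cultured MLN, adjusted p 2.1e-06, and 2.27 ± 0.29 in thymus, adjusted p 3.08e-05). In cultured MLN against thymus Egr1 rose (log2 fold change 1.17 ± 0.09, adjusted p 8.7e-08) and Egr2 did not pass (adjusted p 0.236). Egr3, also of this list, had 2.08 and 1.16 CPM in cultured MLN, against 3.92 and 5.50 CPM in thymus. It had 2.21 and 1.25 CPM in fresh MLN, so its cultured and fresh MLN libraries overlapped. Tox, which early innate lymphoid precursors require, was 1.06 ± 0.09 log2 units higher in thymus (adjusted p 9.58e-07).

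All 12 transcription factors of innate lymphoid development were tested, Id2 among them. Against fresh MLN, 5 rose and 7 fell in cultured MLN (median log2 fold change -0.57), in cultured MLN against thymus 4 rose and 7 fell (median -0.90), and in thymus against fresh MLN 6 rose and 3 fell (median 0.31). In the same order of comparisons, 39.4%, 34.8% and 25.3% of all genes tested were higher, and 38.1%, 37.8% and 22% lower. Tcf7, which encodes TCF-1, had 0.634 and 0.910 CPM in cultured MLN, 613 and 514.5 CPM in thymus, and 220 and 247 CPM in fresh MLN. It fell, with a log2 fold change of -8.23 ± 0.16 in cultured against fresh MLN (adjusted p 8.17e-14) and was 1.27 ± 0.09 log2 units higher in thymus than in fresh MLN (adjusted p 1.81e-07). TCF-1 is an HMG-box factor and, despite its symbol, no E protein.

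Zbtb16, which encodes PLZF, a factor of innate lymphoid precursors, had 0 counts in both cultured libraries, 44.8 and 47.8 CPM in thymus, and 10.3 and 28.7 CPM in fresh MLN. Taking 3 counts over the cultured libraries as the floor, it was at least 448-fold lower in cultured than in fresh MLN and at least 1070-fold lower than in thymus. The 2 fresh MLN libraries were far apart for this gene. Klf2, a factor of resting lymphocytes, fell with a log2 fold change of -5.09 ± 0.15 in cultured against fresh MLN (adjusted p 4.13e-12), and Gata3 rose by 0.78 ± 0.07 log2 units (adjusted p 2.15e-07).

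**Figure D5:**
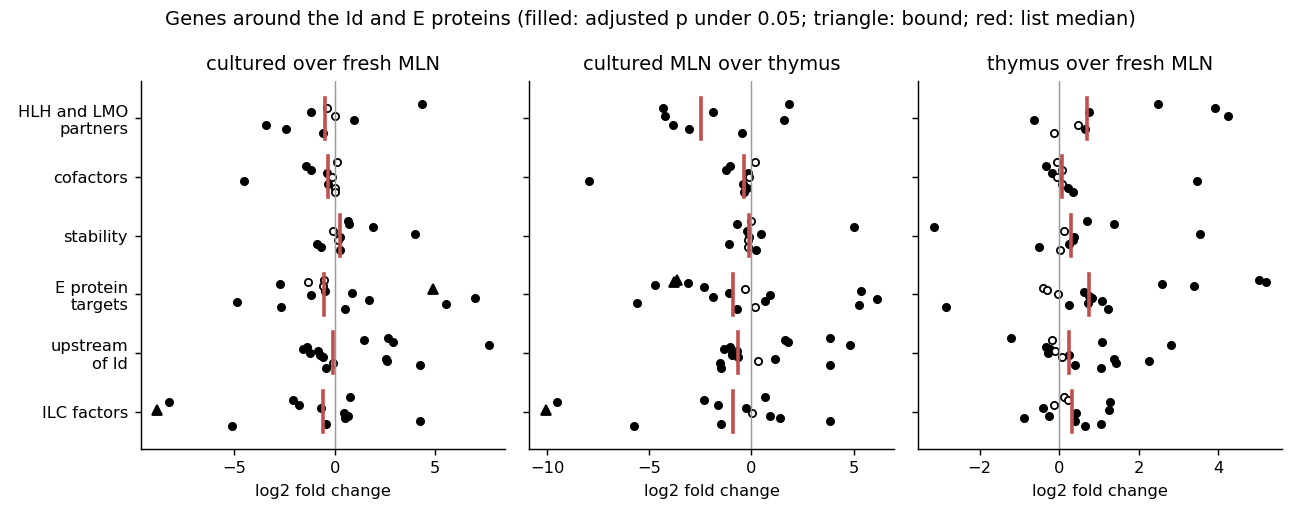
Log2 fold changes of the tested genes of each list (points; filled for an adjusted p under 0.05) with the list median (red) in the 3 comparisons; each panel has its own axis. Triangles are bounds for genes with 0 counts in one group, and genes at or under 3 counts in both groups are left out. The medians in thymus over fresh MLN run from 0.06 for the cofactors to 0.74 for the E protein targets.

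For each tested gene, the 3 genes with the most similar profile over the 6 libraries were found by the root mean square difference of centred log2 CPM, among 11120 genes of at least 5 CPM in the highest group. Nearest to Id1 were Thsd4, Scel and Nyap2, at 0.275 to 0.316 log2 units, whereas Lck ranked 218 at 2.02. Nearest to Id2 were Clec2d, Meis3 and Slc39a13 at 0.0848 to 0.0950. Nearest to Id3 were Calca, Btk and Vim at 0.255 to 0.331, Tcf3 was followed most closely by Chd4 at 0.0189, Tcf4 by Ranbp10 at 0.0241 and Tcf12 by Fam129a at 0.0422. These are descriptions over 3 groups, in which any gene with the same 3 levels ranks high.

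Markers of other cells that express these genes were followed because an Id or E protein transcript can come from them. Plasmacytoid dendritic cells express Tcf4 strongly; of their 10 markers, 7 were tested, and their summed level was 153 to 155 CPM in cultured MLN, 187 to 194 CPM in thymus and 527 to 600 CPM in fresh MLN. Most of it was Bst2 and Ccr9, which other lymphoid cells also express, and the defining gene Siglech was at most 0.372 CPM, with 0 in both thymus libraries and in 1 cultured library. Endothelial and stromal cells express Id1 and Id3; 3 of 10 markers were tested, with a sum of 163 CPM in both cultured libraries, 187 to 194 CPM in thymus and 146 to 154 CPM in fresh MLN. Pecam1 and Pdgfrb made up most of this sum, and Cdh5 and Kdr were at most 0.308 CPM, with 0 in both cultured libraries. Col1a1 went the other way, at 1.24 and 1.05 CPM in cultured MLN and at most 0.186 CPM in any other library.

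Of 10 T cell markers, all tested, the sum was 60.2 to 69.3 CPM in cultured MLN, 136 to 141 CPM in thymus and 138 to 140 CPM in fresh MLN. Cd3e was at 43.2 and 47.6, 73.9 and 72.8, and 90.2 and 101 CPM in the same order, while Cd8a was at most 0.665 CPM. In thymus against fresh MLN 4 of these markers were higher and 2 lower, beside 25.3% and 22% of all genes tested. Cd28 was at 29.7 and 22.4 CPM in thymus and at 2.57 and 2.84 CPM in fresh MLN. Cd6 went the other way, at 9.34 and 10.0 CPM in thymus and 22.3 and 15.1 CPM in fresh MLN. Of 8 markers of NK cells and ILC1, all tested, 6 fell and 2 rose in cultured against fresh MLN, beside 38.1% and 39.4% of all genes tested. The sum of these 8 markers was 147 to 250 CPM in cultured MLN, 45.0 to 49.3 CPM in thymus and 73.1 to 76.6 CPM in fresh MLN. Most of this sum was Gzma and Prf1, at 94.2 and 188 CPM and at 52.8 and 61.4 CPM in cultured MLN. Ncr1, the receptor NKp46, was at 0 and 0.083 CPM in cultured MLN and at 6.63 and 7.25 CPM in fresh MLN. Of 10 macrophage markers 9 were tested, with sums of 25.2 to 27.6 CPM in cultured MLN, 9.93 to 14.8 CPM in thymus and 19.4 to 32.1 CPM in fresh MLN. Of the remaining lists, 10 B cell markers summed to 118 to 131 CPM in cultured MLN, 74.8 to 82.0 CPM in thymus and 159 to 200.2 CPM in fresh MLN, 10 conventional dendritic cell markers to 101 to 107, 19.1 to 22.3 and 51.7 to 58.8 CPM, and 8 mast cell and basophil markers to 758 to 1055, 816 to 831 and 340 to 383 CPM. Different genes carried the mast cell and basophil sum: Mcpt8 at 588 and 866 CPM in cultured MLN, Kit at 698 and 709.7 CPM with Cpa3 at 117 and 121 CPM in thymus, and Kit at 315 and 355 CPM in fresh MLN. Fcer1a, Ms4a2, Prss34 and Mcpt4 were at most 0.128 CPM in any library. Cma1, the remaining marker of that list, had 17 and 35 counts in cultured MLN and at most 4 in any other library. The B cell sum was mostly Ighm and Cd79b, and H2-Ab1 gave 55.3 and 66.2 CPM of the dendritic cell sum in cultured MLN. Of the 8 dendritic cell markers tested, 2 rose and 6 fell in cultured against fresh MLN, beside 39.4% and 38.1% of all genes tested. Among those that fell, H2-Aa was at 0.996 and 1.19 CPM in cultured MLN and at 11.3 and 14.8 CPM in fresh MLN. The part of such cells in the values of Id1, Id3 and Tcf4 was not tested.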

How the data were processed

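The deposited files hold, per library, raw read counts for each Ensembl gene, with no normalization. Builds mm9 and NCBIM37, and the tool HTSeq 0.5.3p9, are listed in the submitters' processing notes. Which aligner, annotation and strand setting were used is not given in the sources used here, so reads of overlapping antisense genes cannot be told apart. Per the labels, a stranded mRNA kit was used. Symbols, lengths and near-identical copies came from GENCODE M21, a later annotation, which named 32919 of the identifiers. In that annotation the exons of Id1, Id2, Id3, Tcf3, Tcf4 and Tcf12 shared no bases with another gene on either strand. Those of Id4 shared bases with genes on the opposite strand, and Lck shared 25 bases with Mir8119 on the same strand. Genes of the lists were not searched for overlap.

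A single fit held the 6 libraries, a mean for each of the 3 groups and no block term (edgeR 4.0.16 on R 4.3.3, TMM factors, filterByExpr defaults, quasi-likelihood F test, two-sided, Benjamini-Hochberg adjustment over the 16231 genes tested of 23871 with a count). The SE of a log2 fold change is its size over the root of the F statistic. CPM errors are SDs over 2 libraries. Other settings included DESeq2 1.42.0. Copies were sought with BLAST 2.17.0.

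The genes and lists were chosen with earlier results of these data known. Named besides the Id and E protein genes and Lck are, from each list and comparison, up to 3 called genes of at least 5 CPM with the largest fold change, and the 3 genes most like each tested gene. A gene that this rule names is not reported here. Genes of the lists outside this rule were chosen after their values were seen. These are Ep300, Runx1t1, Usp1, Tal1, Lyl1, Gata3, Bmpr2, Tgfbr1, Tgfbr2, the SMADs, Egr3, Notch1, Rag1, Rag2, Dntt and Ebf1.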

Additional observations from a re-analysis of the deposited data

How the results depend on the processing

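Of 249 alternative values of the 18 fold changes of Id and E protein genes, 229 kept their direction and their side of the threshold. In thymus against fresh MLN, Tcf12 lost its call with DESeq2 size factors (0.15, adjusted p 0.0943), upper quartiles (0.16, 0.0837), a minimum of 5 CPM (0.16, 0.0637), a fit of those 2 groups alone (0.17, 0.0627) and DESeq2 (0.15, 0.12), and ran from 0.13 to 0.23 with 1 library left out. Its adjusted p ran from 0.0237 to 0.194 over all alternatives. With a minimum of 5 CPM, where Id3 was not tested, 2 genes were called in that comparison. Tcf3 in cultured against fresh MLN changed sign with upper quartiles (-0.0149), library totals (-0.21) and the minimum of 5 CPM (-0.0040), and ran from -0.0105 to 0.0436 with 1 library left out. Tcf4 in that comparison passed with upper quartiles (-0.18), library totals (-0.38), 5 CPM (-0.17), those 2 groups alone (-0.16) and without fresh MLN replicate 1 (-0.23, range -0.23 to -0.0923). Library totals alone moved the median of all genes by -0.23 in cultured against fresh MLN and -0.32 in cultured MLN against thymus. The number of cofactors called in thymus against fresh MLN ran from 3 to 5, with 3 without fresh MLN replicate 2.

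The log2 difference of the Id to E protein ratio in thymus against fresh MLN was -1.17 without Id1, and ran from -0.92 to -0.77 with 1 library left out. In cultured against fresh MLN it was 1.00 without Id1, -0.30 per kilobase of summed exons, 0.49 without Tcf4, and, as settings added after seeing the data, 0.19 per kilobase of median transcript and 1.08 for Id2 against Tcf3 and Tcf12; it ran from 0.38 to 0.41. In cultured MLN against thymus it was 2.17, 0.53, 1.37, 1.01 and 2.29 under the same settings and ran from 1.17 to 1.32. For Id2 against Tcf3 and Tcf12 it was -1.21 in thymus against fresh MLN. The cause of these changes was not tested.

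With the replicate number as a block, 4, 4 and 6 genes were called in cultured against fresh MLN, thymus against fresh MLN and cultured MLN against thymus, as without it. The correlation of same-numbered libraries was 0.205 in thymus against fresh MLN, 0.0151 in cultured against fresh MLN and 0.0729 in cultured MLN against thymus, over 2 numbers, and the samples share only a number. At these depths, Id3 in fresh MLN and Id4 were limited by counting, and Id3 had no value under the minimum of 5 CPM.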

Other observations

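Some E protein partners and targets were present at low levels, and are given as counts because they were picked after their values were seen. Tal1, an HLH partner of E proteins in blood stem cells, had 41 and 56 counts in cultured MLN, 21 and 9 counts in thymus, and 2 and 3 counts in fresh MLN. Lyl1, its close relative, had 4 and 5 counts in cultured MLN, 103 and 103 counts in thymus, and 8 and 5 counts in fresh MLN. The 2 relatives were thus highest in different groups. Ebf1, the B lineage factor, had 54 and 27 counts in cultured MLN, 2 and 0 counts in thymus, and 0 in both fresh MLN libraries, at least 29.8-fold higher in cultured than in fresh MLN with 3 counts over the fresh libraries as the floor. Rag1 and Rag2, the recombinase genes, had 31 and 11 counts and 26 and 21 counts in thymus, 0 counts in cultured MLN and 0 and 1 counts each in fresh MLN.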
